A study of Oryza sativa with 12 samples.

Results

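PsbS is the photosystem II protein that lets leaves shed excess absorbed light as heat, and the rice genome annotation in the deposited table holds 2 genes for it, Os01g0869800 and Os04g0690800. Both were taken by their identifiers, 2 of the 39967 genes in the table, and both were among the 22648 genes with an FPKM (a fragment count scaled for the length of the transcript and the size of the library) of at least 1 in at least 3 of 12 libraries, the filter used for testing. Their messenger RNA was followed in leaves of rice plants of the ZH11 background, either wild type (WT) or the mutant labelled phr2, a knockout of the Pi-signalling transcription factor PHR2. All plants grew on 1/2MS medium. At 3 weeks of age the plants labelled as without Pi were moved to the same medium lacking phosphorus, and their leaves were collected 3 days later; no day is given for the controls. The 4 groups were WT control, WT without Pi, phr2 control and phr2 without Pi, with 3 libraries each, and no label says whether a library is a separate plant, so each p-value measures only the spread between libraries, part of which may be technical. The mutant is described no further than as a knockout, with no allele or number of lines, and the dgp1 mutants named in the design text were not analysed here.

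PsbS belongs to the light-harvesting chlorophyll protein superfamily but acts as a sensor rather than an antenna. When light drives more proton pumping than the ATP synthase can use, the thylakoid lumen becomes acidic, PsbS is protonated, and the antenna of photosystem II switches into a state that releases excitation as heat. This rapidly reversible quenching is strengthened by zeaxanthin, which violaxanthin de-epoxidase makes from violaxanthin in the same acidic lumen. In rice, Os01g0869800 is known as the gene that supplies most of the PsbS protein and most of this quenching.

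Os01g0869800 lies on chromosome 1, 37697024 to 37699582 on the plus strand, and is annotated as photosystem II 22 kDa protein 1, PSBS1. Its coding length of 807 bases gives 268 codons without the stop. Os04g0690800 lies on chromosome 4, 35337067 to 35338179 on the plus strand, and is annotated as PSBS2, with a coding length of 765 bases and 254 codons without the stop. Each has 1 transcript in the table, 0 annotated genes overlap either, and both carry the Pfam family PF00504, the chlorophyll-binding fold shared with the antenna proteins. How reads shared by the pair were assigned is not given in the sources used here.

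The libraries held 10109727 to 13122430 reads. PHR2 itself (Os07g0438800) was listed at 17.9 to 27.5 FPKM in WT control, 24.7 to 31.5 in WT without Pi, 21.4 to 29.6 in phr2 control and 23.2 to 29.7 in phr2 without Pi, so its RNA level does not separate the genotypes and does not check the labels. The library labelled phr2 without Pi replicate 3 stood apart from its group: it correlated at a mean r of 0.871 with its group and of 0.904 with WT, and the library closest to it was WT without Pi replicate 2, at r = 0.968. A pair of WT libraries also lay near it. WT without Pi replicate 2 had a mean r of 0.883 with phr2 and 0.871 with WT, against 0.895 with its own group. WT control replicate 3 had its closest library in phr2 without Pi replicate 3 (r = 0.950). The comparisons of the PsbS genes between groups and of their ratio are therefore also given without these libraries where the value moves by over 1.5 times, the sign turns or the call changes, and those resting on phr2 without Pi are given without its replicate 3. Summed FPKM ranged from 1162552 in WT without Pi replicate 3 to 2292700 in WT control replicate 1, and the library size that the FPKM values imply was 0.674 to 1.21 times the reads counted, so levels were also compared after rescaling. The leaf label fitted the markers: 36 genes for the Rubisco small subunit and chlorophyll-binding proteins summed to 37599 to 157839 FPKM per library, whereas 9 Casparian strip membrane protein genes, which mark root endodermis, summed to 4.201 to 50.2 FPKM. Of those 9 genes, 0 were at 0 in every library.

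PSBS1 was by far the more abundant of the pair and was lowest in WT leaves without Pi. Its FPKM was 11763, 7715 and 3558 in WT control, a mean of 7678 ± 4102 (SD, n = 3), and 1508, 1260 and 1058 in WT without Pi, a mean of 1276 ± 225 (SD, n = 3). Every WT library without Pi lay below every WT control library, although the controls themselves ranged widely. In phr2 control the values were 2983, 4096 and 4165, a mean of 3748 ± 664 (SD, n = 3), and in phr2 without Pi they were 2665, 3320 and 2169, a mean of 2718 ± 577 (SD, n = 3). These last groups overlapped. In order of mean level, WT control came first, followed by phr2 control, phr2 without Pi and WT without Pi; neighbours in this order overlapped, except that phr2 without Pi lay above WT without Pi. PSBS1 ranked between 19 and 94 among all genes by FPKM in the 12 libraries, and it was covered by 9915 to 74660 reads per library.

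PSBS2 was expressed at a far lower level and was lowest in phr2 leaves without Pi. Its FPKM was 632, 425 and 99.7 in WT control, a mean of 386 ± 268 (SD, n = 3), and 254, 45.7 and 141 in WT without Pi, a mean of 147 ± 104 (SD, n = 3). These WT groups overlapped, because control replicate 3 was below 2 of the libraries without Pi. In phr2 control it was 106, 146 and 223, a mean of 158 ± 59.1 (SD, n = 3), and in phr2 without Pi it was 29.2, 24.0 and 43.3, a mean of 32.1 ± 9.96 (SD, n = 3). All 3 phr2 libraries without Pi lay below every other library, the nearest being WT without Pi replicate 2 at 45.7. The margin is narrow, because phr2 without Pi replicate 3 was at 43.3. The share of all genes separated in this way was not counted. The order of the means was WT control, phr2 control, WT without Pi and phr2 without Pi, and neighbours in this order overlapped, except that phr2 without Pi lay below WT without Pi. PSBS2 ranked between 555 and 6615 among all genes. Its lowest value, 24.0 FPKM in phr2 without Pi replicate 2, rested on 216 reads, with an exact Poisson 95% interval of 20.9 to 27.4 FPKM that covers counting error only, so counting error is small beside the spread between libraries.

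**Figure D1:**
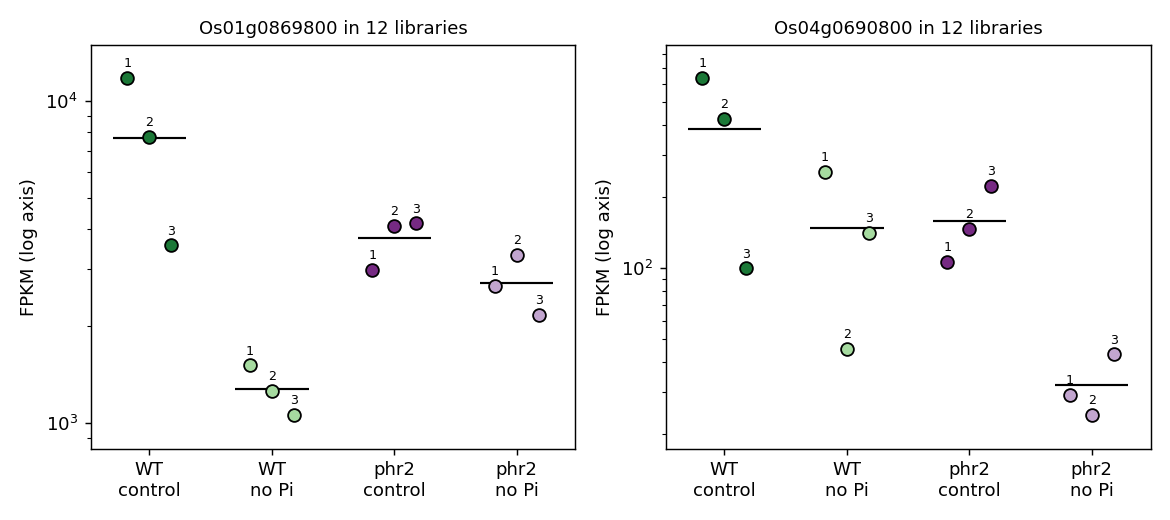
FPKM of Os01g0869800 (left) and Os04g0690800 (right) on log axes in each of 12 libraries, with the replicate number above each point and a line at the group mean. Os01g0869800 is lowest in the 3 WT libraries without Pi (1058 to 1508 FPKM), and Os04g0690800 is lowest in the 3 phr2 libraries without Pi (24.0 to 43.3 FPKM).

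The first comparison asks how leaves of WT plants differ after Pi withdrawal. PSBS1 fell by 2.44 on the log2(FPKM + 1) scale (SE 0.43, 95% interval −3.38 to −1.50), a 5.43-fold lower level, with a Benjamini-Hochberg adjusted p of 0.0332 in limma. Of all genes tested, 2.36% passed in this comparison and 1.4% passed as lower, and 72 genes had a smaller p. PSBS2 had a log2 difference of −1.33 (SE 0.70, 95% interval −2.87 to 0.20; limma adjusted p = 0.258) and did not pass. Non-overlapping lower values, as PSBS1 had, were found for 12.9% of all genes. In a bulk sample, fewer cells expressing a gene and less of its RNA per cell cannot be told apart. The PSBS1 call rested on all groups sharing 1 estimate of the spread: with only the WT groups fitted, the adjusted p was 0.158. The call was kept after scaling every library to 1 common FPKM sum (log2 difference −1.90, adjusted p 0.0250), after quantile normalization (−1.62, adjusted p 0.0397) and in limma's voom on the recovered reads (−1.94, adjusted p 0.0337). It was lost without WT control replicate 1, whose PSBS1 value was the highest of all (−2.05, adjusted p 0.0694). It was also lost without WT control replicate 2 (adjusted p 0.160), WT without Pi replicate 1 (0.0877) or 3 (0.150), phr2 control replicate 2 (0.0508) and phr2 without Pi replicate 1 (0.0530) or 2 (0.0541), and it was kept without each of the other 5 libraries. PSBS2 passed only without WT control replicate 3, at −2.12 (adjusted p 0.0461), and was at −0.66 (adjusted p 0.589) without WT without Pi replicate 2.

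The fall in PSBS1 came with lower green-leaf RNA. The summed FPKM of the 36 green leaf markers was 93467 to 157839 in WT control, 37599 to 52796 in WT without Pi, 79515 to 119936 in phr2 control and 56372 to 118076 in phr2 without Pi. The part of this shift in the PSBS1 result was not tested. The reads counted were also given as RPM, with each library's reads summing to 1000000. On this scale PSBS1 was at 2694 to 6396 in WT control and 978 to 1235 in WT without Pi. These ranges did not overlap, but RPM and FPKM come from the same reads. The share of all genes without overlap in RPM was not counted. In phr2, PSBS1 was at 2778 to 3458 RPM in control and 2008 to 3031 without Pi. For PSBS2 the corresponding ranges were 71.5 to 326, 42.5 to 189, 93.8 to 167 and 20.8 to 37.96 RPM.

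In phr2 leaves the gene with the larger difference after Pi withdrawal was PSBS2, not PSBS1, but neither passed. PSBS2 had a log2 difference of −2.24 (SE 0.70, 95% interval −3.78 to −0.70), 4.73-fold lower, with an unadjusted limma p of 0.00804 and a Benjamini-Hochberg adjusted p of 0.998. PSBS1 had −0.47 (SE 0.43, 95% interval −1.41 to 0.47; limma adjusted p = 0.998). In this comparison 0% of genes passed, with 885 genes (3.91%) at an unadjusted limma p under 0.05 and 0 genes passing in voom, and 135 genes had a smaller p than PSBS2. The phr2 ranges of PSBS2 did not overlap, which held in the lower direction for 5.28% of all genes. Without phr2 without Pi replicate 3, the PSBS2 difference was −2.47 and that of PSBS1 was −0.32.

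Between genotypes, the PsbS genes pointed in opposite directions without Pi. PSBS1 was at 2169 to 3320 FPKM in phr2 and 1058 to 1508 in WT, a log2 difference of 1.08 (SE 0.43, 95% interval 0.15 to 2.02; limma adjusted p = 0.550). PSBS2 was at 24.0 to 43.3 FPKM in phr2 and 45.7 to 254 in WT, a log2 difference of −1.89 (SE 0.70, 95% interval −3.43 to −0.35; limma adjusted p = 0.541). Neither passed, and 0% of genes did; 1963 genes (8.67%) had an unadjusted limma p under 0.05, and 0 passed in voom. For both genes the ranges of the groups did not overlap, as held for 5.96% of all genes in the higher direction and 5.46% in the lower. Without phr2 without Pi replicate 3, the differences were 1.24 (adjusted p 0.282) for PSBS1 and −2.12 (adjusted p 0.262) for PSBS2. The direction of PSBS1 was shared by gene lists described below. The median was 0.77 for antenna proteins (3 of 22 tested genes below 0), 0.42 for photosystem II (6 of 36) and 0.82 for photosystem I (1 of 15). It was −1.39 for the light-stress relatives of the antenna proteins (4 of 6 below 0) and −0.01 for all genes.

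In control medium the phr2 means of both genes were below the WT means, within overlapping ranges. The log2 difference was −0.89 (SE 0.43, limma adjusted p 0.293) for PSBS1 and −0.98 (SE 0.70, limma adjusted p 0.473) for PSBS2, in a comparison where 0.667% of genes passed. The interaction, the phr2 response minus the WT response, was 1.97 for PSBS1 (SE 0.61, 95% interval 0.65 to 3.30), with an unadjusted limma p of 0.00719 and an adjusted p of 0.516. For PSBS2 it was −0.91 (SE 1.00, 95% interval −3.08 to 1.27; limma adjusted p = 0.785). Of all genes, 0% passed the interaction, 2002 (8.84%) had an unadjusted limma p under 0.05, and 0 passed in voom. The interaction median was 0.92 for antenna proteins (6 of 22 tested genes below 0), 0.92 for photosystem II (6 of 36) and 0.73 for photosystem I (3 of 15). It was −1.04 for the light-stress relatives, of which 3 of 6 were below 0, and 0.02 for all genes. Without phr2 without Pi replicate 3 the interaction was 2.12 (adjusted p 0.627) for PSBS1 and −1.14 (adjusted p 0.800) for PSBS2. That of PSBS2 was −0.12 without WT control replicate 3 and −1.58 without WT without Pi replicate 2. In control medium, leaving out WT control replicate 3 gave −1.36 (adjusted p 0.0736) for PSBS1 and −1.77 (adjusted p 0.1205) for PSBS2. A difference between genotypes in the PSBS1 response was therefore not shown at this threshold, although the response passed in WT and not in phr2.

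Averaged over genotypes, both genes had negative differences after Pi withdrawal that missed the threshold. The pooled Pi effect was −1.46 for PSBS1 (SE 0.30, limma adjusted p 0.0649) and −1.79 for PSBS2 (SE 0.50, limma adjusted p 0.111), with 0.053% of genes passing. Without WT control replicate 3, the lowest of its group for both genes, these became −1.69 (adjusted p 0.0193) and −2.18 (adjusted p 0.0232) and passed. Averaged over media, the genotype effect was 0.10 for PSBS1 (SE 0.30, limma adjusted p 0.898) and −1.43 for PSBS2 (SE 0.50, limma adjusted p 0.165), with 1.22% of genes passing. Without WT control replicate 3 the PSBS1 value was −0.14, on the other side of 0. Without phr2 without Pi replicate 3 the pooled Pi effect was −1.38 for PSBS1 and −1.90 for PSBS2, the pooled genotype effect was 0.17 and −1.55, and none passed. The ranges of the pooled groups overlapped for both genes in both comparisons.

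**Figure D2:**
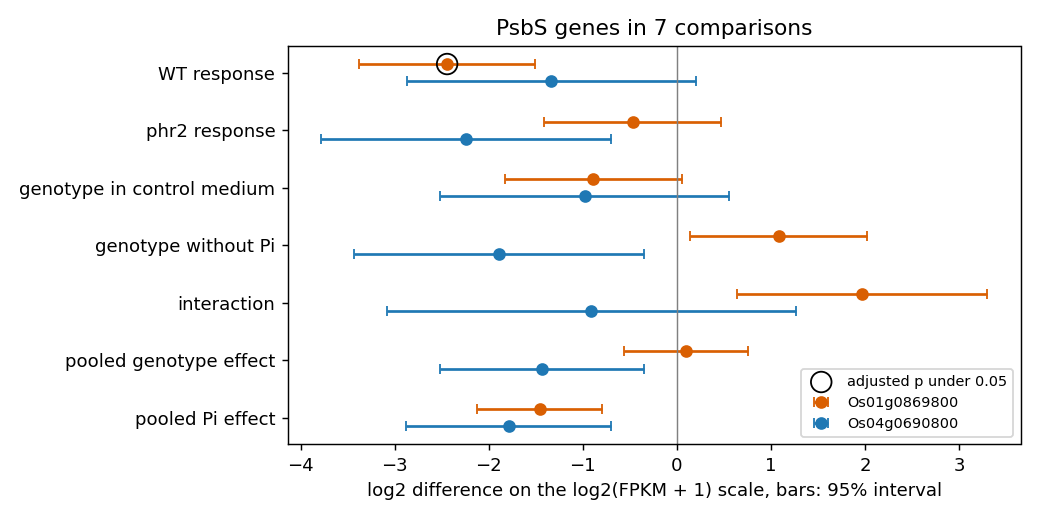
Log2 differences of the PsbS genes in 7 comparisons on the log2(FPKM + 1) scale, as points with 95% intervals from limma; the ring marks an adjusted p under 0.05. Os01g0869800 in the WT response (−2.44) is ringed, and the points of the genes lie on opposite sides of 0 for genotype without Pi (1.08 and −1.89).

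The proportion of the PsbS genes is free of library scaling, because both values come from the same library. PSBS1 exceeded PSBS2 by 18.6-fold, 18.1-fold and 35.7-fold in WT control and by 5.94-fold, 27.6-fold and 7.49-fold in WT without Pi, in FPKM. It exceeded PSBS2 by 28.1-fold, 28.0-fold and 18.7-fold in phr2 control and by 91.4-fold, 138-fold and 50.1-fold in phr2 without Pi. PSBS2 thus made up 0.718% to 1.96% of the summed PsbS FPKM in phr2 without Pi (0.718% and 1.08% without replicate 3) and 2.72% to 14.4% in the other libraries. Every phr2 library without Pi had a higher ratio than every other library. The nearest values were 50.1-fold in phr2 without Pi replicate 3 and 35.7-fold in WT control replicate 3. How often other pairs of genes separate in this way was not counted.

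The mean log2 ratio was 4.51 ± 0.55 in WT control, 3.41 ± 1.18 in WT without Pi, 4.60 ± 0.33 in phr2 control and 6.38 ± 0.72 in phr2 without Pi (SD, n = 3 each). Over both media, the ratio was higher in phr2 than in WT by 1.53 on the log2 scale (5.49 against 3.96; 6 libraries against 6, two-sided exact permutation p = 0.0325). Adjusted by Benjamini-Hochberg over the 6 comparisons of the ratio, this exact p became 0.195 and did not pass. With each library left out in turn, the unadjusted exact permutation p ranged from 0.0108 to 0.0779 and stayed under 0.05 in 7 of 12 cases; it was above without WT without Pi replicate 1 or 3 and without each phr2 library without Pi (1.51 with an exact permutation p of 0.0584 without replicate 3). Over both genotypes, the ratio without Pi differed from that in control medium by 0.33 (two-sided exact permutation p = 0.662). This was 0.19 without phr2 without Pi replicate 3, and it ranged from −0.10 to 0.80 with each library left out in turn. Within one medium or one genotype, 3 libraries against 3 cannot give a two-sided exact p below 0.1. That smallest value was reached without Pi, where the ratio was 7.85-fold higher in phr2, and within phr2, where it was 3.42-fold higher without Pi. Without phr2 without Pi replicate 3 these were 10.2-fold (exact permutation p = 0.2) and 4.45-fold (exact permutation p = 0.1), and without WT without Pi replicate 2 the first was 12.5-fold. In control medium the genotypes differed by 0.09 on the log2 scale (exact permutation p = 0.8), which was −0.075 to 0.41 with 1 library left out. Within WT the difference after Pi withdrawal was −1.11 (exact permutation p = 0.3), and it was −0.69 without WT without Pi replicate 1 and −1.78 without WT without Pi replicate 2.

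**Figure D3:**
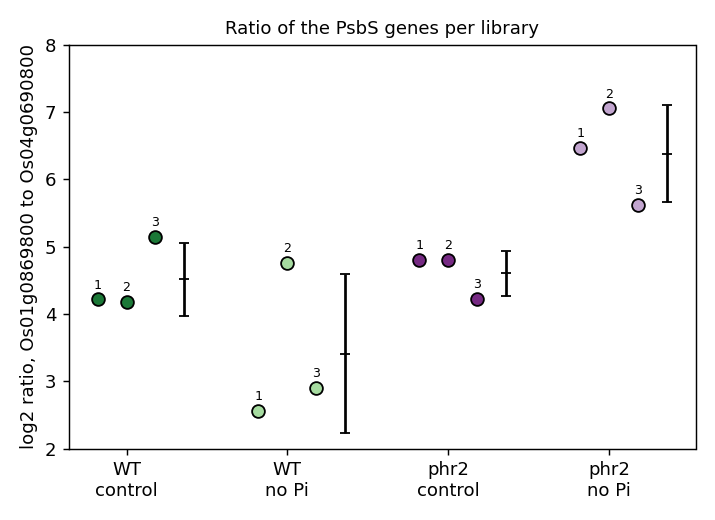
Log2 ratio of Os01g0869800 to Os04g0690800 in each library, with the replicate number above each point and, beside each group, its mean ± SD. The 3 phr2 libraries without Pi lie above all others, and their group mean is 6.38. How often other pairs of genes separate in this way was not counted.

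A list of antenna genes was made by words in the annotation. It also holds photosystem I antenna genes and genes that are no antenna proteins. Relative to the summed FPKM of this list, PSBS1 lay between 3.12% and 5.65% in all libraries but 1. Its FPKM equalled 13.8%, 5.65% and 4.495% of the summed FPKM of these 30 genes in WT control. In WT without Pi it equalled 3.17%, 3.96% and 3.23%. In phr2 it equalled 4.44%, 3.87% and 3.86% in control and 3.12%, 3.24% and 4.57% without Pi. WT control replicate 1 stands out with 13.8%, while the other 11 libraries lie between 3.12% and 5.65%. The WT groups did not overlap on this scale and the phr2 groups did. The nearest WT values were 4.495% in control replicate 3 and 3.96% in replicate 2 without Pi. The share of all genes separated in this way on this scale was not counted. PSBS2 equalled 0.126% to 0.743% of the antenna sum in WT control, 0.144% to 0.535% in WT without Pi, 0.139% to 0.206% in phr2 control and 0.0234% to 0.0911% in phr2 without Pi. On this scale too, the phr2 libraries without Pi were the lowest for PSBS2.

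**Figure D4:**
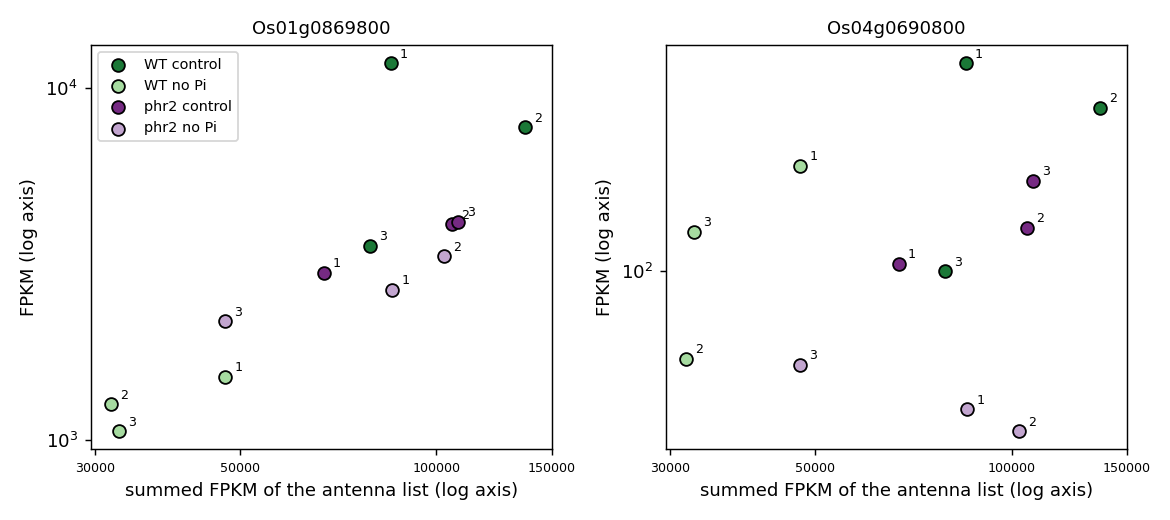
FPKM of each PsbS gene against the summed FPKM of the 30 genes in the antenna list, both on log axes. There is 1 point per library, with the replicate number beside it. Os01g0869800 lies in a band along the antenna sum apart from WT control replicate 1, whereas Os04g0690800 is at 24.0 to 43.3 FPKM in phr2 without Pi, where antenna sums reach 102565.

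Other genes of photoprotection were examined in the WT response from lists made by words in the annotation, leaving out the PsbS genes. The lists overlap and were made with earlier results of these data known. The median log2 difference of all genes tested was −0.01, and 0.958% passed as higher and 1.4% as lower. In the list of the xanthophyll cycle and the regulators of lumen acidity, 0 of 8 tested genes passed and 6 lay below 0, with a median of −0.76. Violaxanthin de-epoxidase (Os04g0379700) was at 156 ± 22.0 FPKM in WT control and 83.2 ± 16.9 in WT without Pi (SD, n = 3 each; log2 difference −0.91, limma adjusted p = 0.1198). PROTON GRADIENT REGULATION 5 (Os08g0566600), which acts in cyclic electron flow and so in acidifying the lumen, was at 720 ± 400 and 264 ± 62.6 FPKM in the same groups (limma adjusted p = 0.138).

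Among the light-stress relatives of the antenna proteins, 1 of 6 tested genes fell and 0 rose, with a median of −0.36. This median has no stable sign: it was 0.75 without WT control replicate 1, −1.29 without WT control replicate 3 and 0.03 after quantile normalization. The gene that fell was stress enhanced protein 1 (Os10g0395200), a thylakoid member of the same superfamily as PsbS, from 1862 ± 928 to 456 ± 165 FPKM (SD, n = 3 each; log2 difference −1.96, limma adjusted p = 0.0459). OHP1 (Os12g0480100), a one-helix protein that helps assemble photosystem II, was at 96.4 ± 11.3 and 37.4 ± 17.3 FPKM (limma adjusted p = 0.0516) and did not pass. Of the state transition list, 1 of 2 tested genes fell and 0 rose, with a median of −0.74. STN8 (Os05g0480000), which phosphorylates photosystem II core proteins during repair, fell from 96.0 ± 44.1 to 17.9 ± 6.0 FPKM (log2 difference −2.28, limma adjusted p = 0.0420). STN7 (Os05g0549100), the kinase of state transitions, was at 169 ± 48.6 and 302 ± 112 FPKM (log2 difference 0.80, limma adjusted p = 0.213).

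In the antenna list 3 of 22 tested genes fell and 1 rose, with a median of −1.17. Photosystem I chlorophyll a/b-binding protein 6 (Os09g0439500) fell from 537 ± 202 to 78.1 ± 48.5 FPKM (limma adjusted p = 0.0301), and Os02g0610700, annotated with a chlorophyll a/b-binding domain, rose from 59.1 ± 19.96 to 189 ± 63.9 FPKM (log2 difference 1.66, limma adjusted p = 0.0438). The word patterns of this list also took in genes that are no antenna proteins, such as the flowering regulator HEADING DATE 7. For photosystem II, 5 of 36 tested genes fell and 1 rose, with a median of −1.02. PsbP domain-containing protein 2 (Os04g0434900) fell from 46.5 ± 9.13 to 14.3 ± 4.41 FPKM (log2 difference −1.65, limma adjusted p = 0.0358). The gene that rose was a photosystem II 10 kDa polypeptide gene (Os07g0147550), at 0.649 ± 0.304 and 47.8 ± 32.9 FPKM (log2 difference 4.64, limma adjusted p = 0.0133).

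For photosystem I, 2 of 15 tested genes fell and 0 rose, with a median of −0.91. One was the ortholog of Arabidopsis Lhca5 (Os02g0764500), at 185 ± 85.2 and 59.6 ± 5.22 FPKM (log2 difference −1.53, limma adjusted p = 0.0442). Among electron carriers, cyclic flow and the chloroplast ATP synthase, 10 of 49 fell and 0 rose, with a median of −0.89. They included subunits of the chloroplast NDH complex, which returns electrons around photosystem I: PnsB1 (Os08g0276100) fell from 193 ± 56.5 to 30.9 ± 7.87 FPKM (log2 difference −2.59, limma adjusted p = 0.0220), and PnsB2 (Os03g0158300) from 463 ± 199 to 79.7 ± 61.8 FPKM (limma adjusted p = 0.0336). In the antioxidant list, which also holds enzymes outside the chloroplast, 1 of 30 fell and 0 rose, with a median of −0.51. The gene that fell was the chloroplast 2-Cys peroxiredoxin BAS1 (Os02g0537700), from 3265 ± 717 to 824 ± 420 FPKM (log2 difference −2.09, limma adjusted p = 0.0428). The chloroplast copper-zinc superoxide dismutase (Os08g0561700) was at 1119 ± 254 and 388 ± 182 FPKM (log2 difference −1.62, limma adjusted p = 0.0586).

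**Figure D5:**
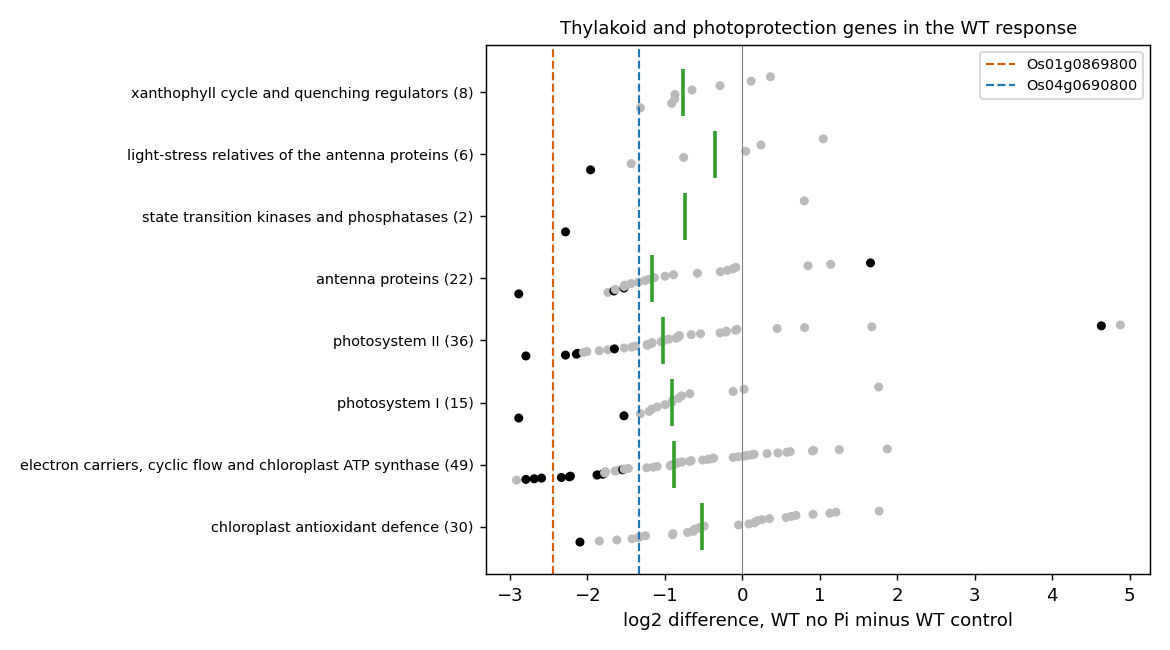
Log2 differences of the tested genes of 8 lists in the WT response, with 1 point per gene, black where the limma adjusted p was under 0.05; the number tested is in parentheses, green bars are list medians, and dashed lines give the PsbS genes. List medians run from −1.17 for antenna proteins to −0.36 for light-stress relatives, and Os01g0869800 at −2.44 lies below these medians. Single list genes lie lower still, such as Os09g0439500 at −2.88 and Os08g0276100 at −2.59. Os01g0869800 ranked 115 by size of fall among the 22648 genes tested.

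The calls in these lists depended on single libraries, also on phr2 libraries, which enter the WT response only through the estimate of the spread. Without phr2 without Pi replicate 2, 11 of all genes passed as higher and 7 as lower, against 217 and 317 with every library. The light-stress and state transition lists lost their calls without phr2 control replicate 1, 2 or 3, and without phr2 without Pi replicate 1 or 2. Without WT control replicate 1, WT control replicate 2 or WT without Pi replicate 1, 0 genes of the 8 lists passed, and without WT without Pi replicate 3 only the 1 photosystem II gene that rose did. Without WT control replicate 3, 9 antenna genes, 12 of photosystem II and 18 electron carrier genes fell. The list medians also depend on scale. Rescaling every library to the same FPKM sum moved the median of all genes to 0.41, and the list medians then ran from −0.62 for antenna proteins to 0.19 for light-stress relatives. Relative to that all-gene median, PSBS1 stood at −2.30, compared with −2.43 on the deposited scale. The medians of the light-stress and antioxidant lists turned positive under the rescaling, at 0.19 and 0.01, whereas the other 6 remained negative. In the pooled genotype effect, where 1.17% of all genes passed as lower, 1 gene of these lists passed: a gene annotated as ferredoxin-6 (Os01g0860601) was at 1818 ± 797 FPKM in WT control, 2005 ± 1101 in WT without Pi, 344 ± 152 in phr2 control and 700 ± 389 in phr2 without Pi (SD, n = 3 each; log2 difference −1.999, limma adjusted p = 0.0487). Its call was lost after rescaling (−1.81, adjusted p 0.0762) and in 17 of 22 alternatives in all, and it passed in 3 of the 12 fits with 1 library left out (adjusted p 0.0131 to 0.135). Calls of single list genes were near the threshold: of the 10 named genes that passed in the WT response, each passed in 1 to 9 of the 12 fits that left out a library, and 0 passed with only the WT groups fitted.

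Across the 12 libraries the PsbS genes resembled different genes. Of 14582 genes with a mean FPKM of at least 5 and an annotation, those closest to PSBS1 by Pearson r of log2(FPKM + 1) were DIVINYL REDUCTASE (Os03g0351200, r = 0.986), an enzyme of chlorophyll synthesis, and Os07g0420000 (r = 0.983), a conserved hypothetical protein. Next came YELLOW-GREEN LEAF 6 (Os12g0420200, r = 0.978), a chloroplast RNA-binding protein, the chloroplast fructose-1,6-bisphosphatase (Os03g0267300, r = 0.975) and glyceraldehyde-3-phosphate dehydrogenase A (Os04g0459500, r = 0.975), both of the Calvin cycle. For PSBS2 they were acid phosphatase 1 (Os06g0139800, r = 0.938), SQUAMOSA PROMOTER-BINDING-LIKE 2 (Os01g0922600, r = 0.929) and a Pno1-like RNA-binding protein (Os03g0115200, r = 0.914). Os03g0169900 (r = 0.906), which holds an Avr cleavage site domain, and RIBOSOMAL PROTEIN L3A (Os12g0167900, r = 0.905) followed. PSBS2 ranked 3002 in likeness to PSBS1, and PSBS1 ranked 2670 in likeness to PSBS2. These correlations describe libraries that share their scaling and are the highest of many, so they carry no test.

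The PsbS genes themselves correlated at r = 0.523 over 12 libraries (permutation p = 0.0808; Spearman rho = 0.490, permutation p = 0.110). After subtracting group means r was 0.662, and without the 2 libraries farthest from the median of PSBS2 (WT control replicate 1 and phr2 without Pi replicate 2) it was 0.422. GLK2 (Os01g0239000), a transcription factor that activates photosynthesis genes, and DGP1 (Os01g0837600), the plant-specific regulator of chlorophyll synthesis in the series' title, were each compared with both genes, making 5 relations. PSBS1 gave r = 0.241 with GLK2 (permutation p = 0.449; rho = 0, permutation p = 1) and r = 0.454 with DGP1 (permutation p = 0.151; rho = 0.133, permutation p = 0.682). Without the 2 libraries farthest from the median of GLK2 (WT control replicate 1 and WT without Pi replicate 1) the first was −0.235, and without the 2 farthest from the median of DGP1 (WT control replicate 1 and phr2 without Pi replicate 1) the second was −0.273. PSBS2 gave r = 0.489 with GLK2 (permutation p = 0.105; rho = 0.413, permutation p = 0.184), which became −0.02 without the same 2 libraries as for GLK2 above. Its r with DGP1 was 0.634 (permutation p = 0.0134; rho = 0.524, permutation p = 0.0848), but this was 0.270 without the 2 libraries named for DGP1, so it rests on those libraries. After subtracting group means, r with GLK2 was 0.784 for PSBS1 and 0.728 for PSBS2. With DGP1 it was 0.604 for PSBS1 and 0.654 for PSBS2. These values after group means carry no test, and the libraries share their scaling. Adjusted by Benjamini-Hochberg over the 5 relations, the permutation p values of r over the 12 libraries ranged from 0.0669 to 0.449 and those of rho from 0.274 to 1, and none passed.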

How the data were processed

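The authors deposited 1 table of FPKM, with 46947 transcripts in rows and the 12 libraries in columns. The tools named by the submitters' processing notes are Bowtie 0.12.2, HISAT2 2.0 and StringTie 1.3.0. Those notes name mm8, a mouse genome build, although the table lists rice genes, so the rice assembly is not given in the sources used here and coordinates are printed as deposited. Lengths in the table were multiples of 3 for 93.8% of protein-coding rows and are treated as coding lengths. FPKM times length was a whole multiple of the value of 1 read for 100% of values, at a tolerance of 0.01, which gave the reads per library.

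FPKM was summed per gene, and log2(FPKM + 1) was fitted by limma 3.58.1 (R 4.3.3) as 4 group means over all 12 libraries, the variance following an intensity trend (8 residual and 3.78 prior degrees of freedom). The scale understates changes of low genes. Calls are Benjamini-Hochberg adjusted p under 0.05 over 22648 genes. Differences in the mean log2 ratio of the PsbS genes were tested by exact permutation, and correlations by 100000 permutations. Both used numpy 2.4.6, pandas 2.3.3 and scipy 1.17.1 in Python 3.11.15, and figures used matplotlib 3.10.9. The fit was tested on simulated data.

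The PsbS genes and the lists were chosen with earlier results of these data known. Genes named are the PsbS genes, GLK2, DGP1, the 2 genes of each list with the smallest p in the WT response, those with the smallest p in the pooled genotype effect, and the 5 genes most like each PsbS gene. Of those from the pooled genotype effect, only the 1 that passed is printed with values, a narrowing made after its values were seen. The alternatives were other pseudocounts, no filter, rescaling, quantile normalization, voom on recovered reads, no intensity trend, only the groups compared, a replicate block, and libraries left out. Rescaling together with leaving out libraries, the ratio tests of 3 against 3 libraries, with each library left out in turn, and the list counts under alternatives were added after seeing the data. No promoter or protein sequence was used here.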

Additional observations from a re-analysis of the deposited data

How the results depend on the processing

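For Os01g0869800 in the WT response, direction was kept in every alternative, but the limma adjusted p was above 0.05 without a filter on low values (−2.44, adjusted p 0.0595), with only the WT groups fitted (−2.44, adjusted p 0.158), and with both WT control replicate 1 and phr2 without Pi replicate 3 left out, as deposited (−2.05, adjusted p 0.0563) or rescaled (−1.67, adjusted p 0.0555). With each library left out in turn it ranged from −2.91 to −2.05 (adjusted p 0.0103 to 0.160). The same ranges were −2.12 to −0.66 for Os04g0690800 in the WT response, −0.14 to 0.29 for Os01g0869800 in the pooled genotype effect, and in the pooled Pi effect −1.69 to −1.26 for Os01g0869800 and −2.18 to −1.45 for Os04g0690800. They were 1.22 to 1.79 for the log2 ratio by genotype and −0.10 to 0.80 by Pi supply, which turned negative without phr2 without Pi replicate 2. For the ratio by genotype in control medium the range was −0.075 to 0.41. The ratio by genotype was 1.56 (exact permutation p = 0.0873) with both libraries left out. Same-numbered libraries of different groups had deviations that correlated from −0.43 to 0.30, so the replicate numbers were not taken as pairs; with them as a replicate block, the ratio by genotype was 1.53 (exact permutation p = 0.0556), Os01g0869800 in the WT response kept its call (adjusted p 0.0428), and 174 genes passed in the WT response. The r of Os01g0869800 with GLK2 was −0.225 rescaled and −0.427 with both libraries left out, its r with DGP1 was −0.196 with both left out, and the r of Os04g0690800 with DGP1 was 0.521 (permutation p = 0.0705) rescaled and 0.616 (permutation p = 0.0581) with both left out. Counts over all genes moved far more: 534 genes passed in the WT response (217 higher, 317 lower), 1094 rescaled (938 higher, 156 lower), 959 in voom (834 higher, 125 lower), 241 by quantile normalization, 86 unfiltered, 114 with both libraries left out, 0 with only the WT groups, and 0 to 3155 with 1 library left out. In control medium 151 genes passed between genotypes, and 0 did when rescaled and 1178 with both libraries left out; 0 passed without Pi, and 641 did with both left out. In the pooled effects 277 genes passed for genotype, against 0 rescaled and 1974 with both left out, and 12 for Pi, against 1 to 1742 with 1 library left out. Neither PsbS gene passed between genotypes in any of these. The causes were not tested. Precision rests on 3 libraries a group, not on reads.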
